A study of Mus musculus with 12 samples.

Results

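The genes described here are 42 mouse genes induced by type I or type II interferons. They were chosen by name, with earlier results of these data known. The platform annotation of the Illumina mouse BeadChip, a bead array that reads each transcript by the brightness of its probes, pairs 41 of them with 80 probes, and the expression of Ifi44 is not analysed here. Of the 41 genes, 36 lay above background on at least 3 of the 12 arrays and were tested, among 12132 genes and 15909 features in all. The arrays form 4 groups of 3. The first is small intestine of mutant mice (Apc+/+ Cftrfl/fl-Villin-Cre), in which Cre from the Villin promoter, active in the gut epithelium, deletes floxed Cftr, the epithelial chloride and bicarbonate channel. The second is small intestine of wild-type mice (Apc+/+ Cftr+/+-Villin-Cre), and the remaining groups are colon of mutant mice and colon of wild-type mice. All mice were C57BL/6 with intact Apc, 3 months old by the sample labels and 12 weeks old by the protocol. The genotype label gives Villin-Cre for the wild types as well, while the growth protocol names wild types without it, and the design text words the mutants as deficient in Apc and Cftr and speaks of RNA-Seq. Per the design text, colon RNA came from epithelium taken off the distal colon, and small-intestinal RNA from the wall of the mid-duodenum without its villi, which keeps stromal and other cells. A further protocol field instead mentions frozen whole tissue of the colon. The labels name 3 mice per genotype but do not tie an array to a mouse, so the p-values given here cover only the spread between arrays of a group, which may be partly technical.

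Interferons are secreted when a cell senses foreign nucleic acid or, for interferon gamma, when lymphocytes are activated. Type I interferons act through JAK kinases on a complex that includes STAT2 and IRF9 and binds the interferon-stimulated response element (ISRE), and interferon gamma acts through JAK kinases on the gamma-activated site (GAS). The induced genes include RNA sensors, transcription factors that amplify the response, antiviral enzymes, GTPases that attack vacuoles of intracellular microbes, chemokines that draw T cells, and the proteasome subunits and peptide pumps that feed class I molecules. In the gut, a basal level of this programme is known in epithelium and in cells of the lamina propria.

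The promoters are shown first for genes that differed between tissues and for 2 whose brightest probe did not pass that test (Oas1g and Irgm1). Sequences are RefSeq's, GRCm38.p6, read 5′ to 3′ on the gene's own strand, and each ends before the annotated start. Capitals mark the ISRE core (GAAA, any 2 bases, GAAA, searched on both strands, so that TTTC, any 2 bases, TTTC is the same site read from the other strand) and the GAS core (TTCNNNGAA, which reads alike on both strands). Overlapping matches run together in 1 capital stretch. A match is a run of letters, not a shown binding site.
Isg15 (chr4:156200845-156200926, minus strand): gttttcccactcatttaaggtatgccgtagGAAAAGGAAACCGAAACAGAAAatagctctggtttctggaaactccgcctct
Ifit3 (chr19:34583343-34583446, plus strand): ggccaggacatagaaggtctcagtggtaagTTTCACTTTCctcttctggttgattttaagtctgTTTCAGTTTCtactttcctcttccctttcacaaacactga
Oas1g (chr5:120887614-120887661, minus strand): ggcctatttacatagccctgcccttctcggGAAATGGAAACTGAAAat
Gbp3 (chr3:142559969-142560043, plus strand): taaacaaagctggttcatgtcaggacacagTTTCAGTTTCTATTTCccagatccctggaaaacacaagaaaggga
Igtp (chr11:58199481-58199555, plus strand): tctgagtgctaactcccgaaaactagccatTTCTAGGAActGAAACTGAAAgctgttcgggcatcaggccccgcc
Irgm1 (chr11:48871421-48871480, minus strand): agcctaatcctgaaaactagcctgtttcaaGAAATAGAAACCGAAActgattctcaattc
Psmb8 (chr17:34198068-34198136, plus strand): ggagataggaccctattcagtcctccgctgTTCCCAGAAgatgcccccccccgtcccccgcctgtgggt

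Isg15 holds 3 ISRE cores, overlapping in a single stretch between 56 and 78 bases before the start, and the other 4 genes with only ISRE matches hold 2 each. Igtp holds 1 ISRE core and 1 GAS core, and Psmb8 1 GAS core and no ISRE core. Over windows of 250 bases before to 50 bases after the start, 17 of the 34 genes with a promoter in the table held an ISRE core, against 3.99% of 27025 mouse genes. A GAS core stood in 11 of the 34 (32.4%), against 9.55% of all genes. The 34 include Ifi44, which has no probe, and Ifih1, Ifit1, Xaf1 and Tgtp1, which were too dim to be tested. The ISRE core stood in 7 of 19 genes that were higher in small intestine in both genotypes and in 7 of 10 other tested genes, and the GAS core in 6 of 19 and 4 of 10.

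Psmb9, a catalytic subunit of the immunoproteasome, and Tap1, a chain of the peptide transporter into the endoplasmic reticulum, start back to back. Their windows share 275 bases, and the 225 bases between their starts hold no ISRE core and no GAS core by these letters. The stretch is shown because both genes, which were higher in small intestine, are read outward from it (chr17:34187331-34187555, plus strand, Psmb9 to the left and Tap1 to the right).
Psmb9 and Tap1: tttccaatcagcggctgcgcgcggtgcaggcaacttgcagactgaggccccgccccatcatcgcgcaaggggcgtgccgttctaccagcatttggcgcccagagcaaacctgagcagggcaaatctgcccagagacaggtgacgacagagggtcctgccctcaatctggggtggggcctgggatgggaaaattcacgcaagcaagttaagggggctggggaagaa

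Each array had 42.9% to 43.0% of its probes above background, a share held level because the deposited columns have nearly the same distribution. Of the 36 tested genes, 28 were above background on all 12 arrays. The targeted gene did not check the genotype labels. The Cftr probe gave 8.11 to 8.30 in small-intestinal mutants, 8.20 to 8.28 in small-intestinal wild types, 7.94 to 8.21 in colon mutants and 7.95 to 8.13 in colon wild types, and the place of its probes relative to the deletion was not analysed here. As a check of the tissue labels, 8 of 8 tested enterocyte markers were higher and 7 of 7 tested colonocyte markers lower in small intestine, in each genotype. Colon mutant 1 and colon wild type 1 were the closest pair of arrays (SD of their differences 0.0822 log2 units, against 0.103 to 0.203 within groups). Colon mutant 1 was also closer to colon wild type 2 (0.0995) than to colon mutant 2 (0.175) or 3 (0.147). From colon wild type 3 it was at 0.145. Small-intestinal wild type 1 and wild type 3 had the lowest value within groups. Pancreatic acinar enzymes were at a mean of 11.4 on small-intestinal wild type 2, 11.2 on mutant 2 and 9.74 on mutant 1, so results were also computed without these 3 arrays, which leaves 1 small-intestinal mutant array and 2 wild-type arrays, and the lone array is then assumed to vary like the other groups.

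The interferon response genes were mostly higher in small intestine than in colon, in both genotypes. In mutant mice 25 of 36 were higher and 1 was lower, and in wild-type mice 23 were higher and 1 was lower (limma, Benjamini-Hochberg adjusted p under 0.05). Over all features, 17.4% were called higher and 22.2% lower in mutants, and 17.9% higher and 23.5% lower in wild types. The median difference of the 36 genes was 0.39 log2 units in mutants and 0.38 in wild types, against -0.02 over all features in each. The pair of comparisons uses separate arrays but 1 shared estimate of spread. All 24 genes called in wild types were called in the same direction in mutants, where they made up 92.3% of the 26 calls, and the other 2 were Oas3 and Stat2. Among the called genes, Mx2, Cxcl10 and Oas3 passed the filter on dim probes only through small intestine, and Isg20 only through colon. Their calls are therefore not independent of that filter. Over all 41 genes with a probe and no filter on dim probes, 22 were higher and 1 lower in mutants, and 24 higher and 1 lower in wild types. The shares of all features above belong to the filtered fit, and those without the filter are not given here. The values below are log2 values per array, in the order of array 1, 2 and 3 of a group. They end in a floor near 7.7, and a probe was called above background over 7.78, so differences of dim probes are understated.

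Isg15, a ubiquitin-like protein that is attached to other proteins and is also secreted, and Usp18, the protease that removes it and also dampens the type I receptor, showed among the widest gaps. Isg15 read 10.23, 9.96 and 10.74 on the small-intestinal mutant arrays and 10.44, 9.74 and 10.40 on the small-intestinal wild-type arrays, against 8.39, 8.65 and 8.80 on the colon mutant arrays and 8.35, 8.38 and 8.71 on the colon wild-type arrays. The small-intestinal arrays all stood above the colon arrays. The difference was 1.69 ± 0.23 (SE, limma adjusted p = 1.69e-04) in mutants, or 3.23-fold, and 1.71 ± 0.23 (adjusted p = 1.42e-04) in wild types, or 3.27-fold. Usp18 read 9.49, 9.69 and 10.28 on the small-intestinal mutant arrays and 10.002, 9.44 and 9.83 on the small-intestinal wild-type arrays, against 8.02, 8.13 and 8.35 on the colon mutant arrays and 8.05, 8.01 and 8.37 on the colon wild-type arrays. Again no small-intestinal array reached down to a colon array, and the lower small-intestinal arrays of each gene were mutant 1 or 2 and wild type 2. Its difference was 1.65 ± 0.21 in mutants and 1.62 ± 0.21 in wild types (limma adjusted p = 9.60e-05 in mutants and 1.01e-04 in wild types). With 7.7 taken as background and subtracted on the unlogged scale, 16 was added before log2 was taken again. The Usp18 difference then became 2.92 in mutants and 2.94 in wild types.

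**Figure D1:**
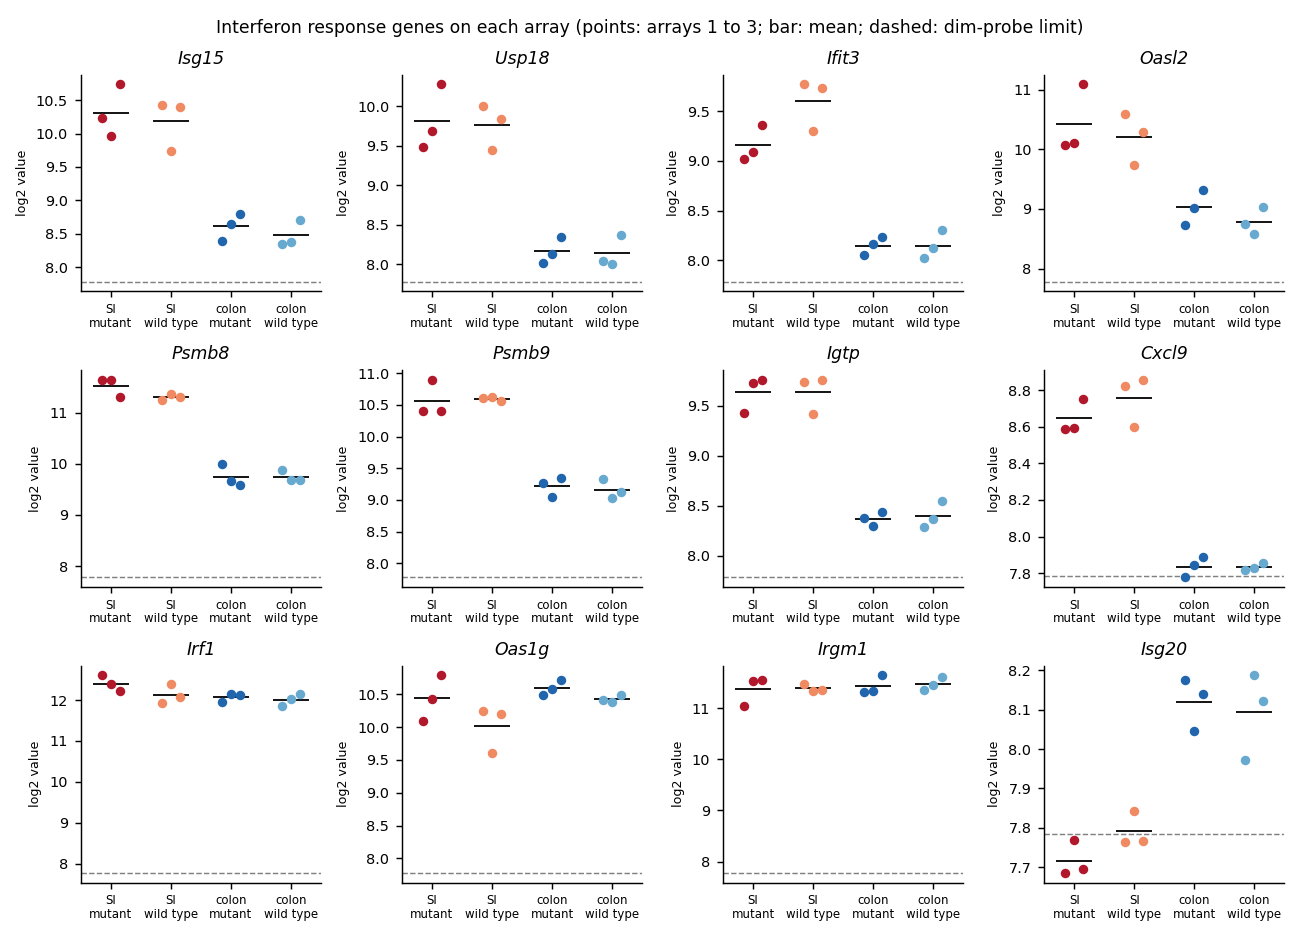
Log2 value (vertical axis) of selected interferon response genes on each of the 12 arrays, by group, with bars for the mean of 3 arrays. The small-intestinal arrays of Isg15, Usp18, Ifit3 and Psmb8 all lie above the colon arrays, while mutant and wild-type arrays of 1 tissue overlap for these 4 genes.

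Among antiviral effectors, which block viral RNA, proteins or replication, 9 of 15 tested genes were higher and 1 lower in mutants, and 8 were higher and 1 lower in wild types. Ifit3, a scaffold of the IFIT complex that holds viral RNA, read 9.02, 9.09 and 9.37 on the small-intestinal mutant arrays and 9.77, 9.30 and 9.74 on the small-intestinal wild-type arrays, against 8.05, 8.16 and 8.23 on the colon mutant arrays and 8.02, 8.12 and 8.30 on the colon wild-type arrays. The tissues did not overlap, and in small intestine mutant 3 was the sole mutant array above any wild-type array, wild type 2. Its difference was 1.01 ± 0.13 (limma adjusted p = 1.39e-04) in mutants and 1.46 ± 0.13 (adjusted p = 8.20e-06) in wild types. A second, dimmer Ifit3 probe gave 0.11 in mutants and 0.24 in wild types. Ifit2, another RNA-binding member of the family, differed by 0.21 ± 0.06 in mutants and 0.41 ± 0.06 in wild types (limma adjusted p = 0.0173 in mutants and 2.83e-04 in wild types).

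The enzymes OAS1 to OAS3 make the 2-5A signal that switches on RNase L. Mouse Oasl1 and Oasl2 are relatives with a ubiquitin-like end. Oasl2 read 10.08, 10.11 and 11.09 on the small-intestinal mutant arrays and 10.59, 9.74 and 10.29 on the small-intestinal wild-type arrays, against 8.73, 9.02 and 9.32 on the colon mutant arrays and 8.74, 8.58 and 9.03 on the colon wild-type arrays. Oasl1 read 9.30, 9.87 and 9.86 on the small-intestinal mutant arrays and 9.54, 9.50 and 9.51 on the small-intestinal wild-type arrays, against 8.42, 8.94 and 8.80 on the colon mutant arrays and 8.41, 8.32 and 8.49 on the colon wild-type arrays. All small-intestinal arrays were above all colon arrays for both genes, and mutant 3 was the highest array for Oasl2. The differences of Oasl2 were 1.40 ± 0.29 in mutants and 1.42 ± 0.29 in wild types (limma adjusted p = 0.00322 in mutants and 0.00268 in wild types). Those of Oasl1 were 0.96 ± 0.16 in mutants and 1.10 ± 0.16 in wild types (limma adjusted p = 6.54e-04 in mutants and 2.20e-04 in wild types).

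Oas1g, in contrast, was bright in colon and read 10.10, 10.42 and 10.79 on the small-intestinal mutant arrays and 10.25, 9.60 and 10.20 on the small-intestinal wild-type arrays, against 10.49, 10.58 and 10.72 on the colon mutant arrays and 10.41, 10.39 and 10.49 on the colon wild-type arrays. In wild types every small-intestinal array lay below every colon array, while in mutants the tissues overlapped. Its tissue differences, -0.16 ± 0.19 in mutants and -0.41 ± 0.19 in wild types, did not pass (limma adjusted p = 0.566 in mutants and 0.107 in wild types). A second Oas1g probe gave -0.45 in mutants and -0.74 in wild types. The probes may also read close relatives such as Oas1a, since probe sequences were not used here. Oas1a (-0.0038 in mutants and 0.011 in wild types) and Oas2 (0.23 in mutants and 0.14 in wild types) did not pass either. Oas3 passed in mutants alone (0.12, limma adjusted p = 0.0407, at least 1.06-fold higher because it was dim on every colon mutant array), with 0.08 in wild types (adjusted p = 0.141). Oas3 was kept through small intestine, with 3 mutant and 2 wild-type arrays above background there and 0 in either colon group.

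Ifi35, an interferon-induced leucine zipper protein, had the tightest values of the large differences. It read 9.73, 9.75 and 9.72 on the small-intestinal mutant arrays and 9.60, 9.60 and 9.51 on the small-intestinal wild-type arrays, against 8.65, 8.70 and 8.77 on the colon mutant arrays and 8.72, 8.71 and 8.58 on the colon wild-type arrays. The arrays of each group lay within 0.2 of each other, and the tissues were apart by 1.03 ± 0.05 in mutants and 0.90 ± 0.05 in wild types (limma adjusted p = 4.28e-08 in mutants and 1.04e-07 in wild types). Parp14, a mono-ADP-ribosyltransferase, read 11.07, 10.27 and 10.61 on the small-intestinal mutant arrays and 10.50, 10.61 and 10.46 on the small-intestinal wild-type arrays, against 9.24, 9.66 and 9.70 on the colon mutant arrays and 9.29, 9.31 and 9.88 on the colon wild-type arrays. It was also apart between the tissues but with wider groups, and differed by 1.12 ± 0.21 in mutants and 1.03 ± 0.21 in wild types (limma adjusted p = 0.00175 in mutants and 0.00281 in wild types). Its second, dimmer probe gave 0.23 in mutants and 0.09 in wild types.

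Samhd1, which depletes the nucleotides that viruses need, was higher by 0.59 ± 0.09 in mutants and 0.58 ± 0.09 in wild types (limma adjusted p = 5.85e-04 in mutants and 5.39e-04 in wild types), although a second probe gave 0.20 in mutants and 0.17 in wild types. Mx2, a dynamin-like GTPase, was higher by 0.29 in mutants, at least 1.19-fold since it was dim on every colon mutant array, and by 0.16 in wild types. Mx2 was kept through small intestine, where all 3 arrays of each group were above background, against 1 colon wild-type array. Rsad2 (viperin) and Bst2 (tetherin) did not pass, with 0.26 and 0.20 in mutants and 0.29 and 0.17 in wild types.

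Isg20, an RNA exonuclease, was the sole member called lower in small intestine in the main fit. It read 7.69, 7.77 and 7.69 on the small-intestinal mutant arrays and 7.76, 7.84 and 7.77 on the small-intestinal wild-type arrays, against 8.18, 8.04 and 8.14 on the colon mutant arrays and 7.97, 8.19 and 8.12 on the colon wild-type arrays. The tissues did not overlap. The gene was kept through colon, where all 3 arrays of each group were above background. In small intestine 1 wild-type array was above background and no mutant array was. The fold is therefore a bound of at least 1.26-fold lower in mutants (limma adjusted p = 2.19e-04), and the wild-type difference was -0.30 ± 0.06 (adjusted p = 0.00136).

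Of the interferon-inducible GTPases, 4 of 5 tested genes were higher in small intestine in each genotype. Igtp, an immunity-related GTPase of the endoplasmic reticulum and of pathogen vacuoles, read 9.43, 9.73 and 9.76 on the small-intestinal mutant arrays and 9.74, 9.42 and 9.76 on the small-intestinal wild-type arrays, against 8.37, 8.29 and 8.44 on the colon mutant arrays and 8.29, 8.36 and 8.54 on the colon wild-type arrays. Every small-intestinal array stood above every colon array, with differences of 1.27 ± 0.11 in mutants and 1.24 ± 0.11 in wild types (limma adjusted p = 7.72e-06 in mutants and 8.03e-06 in wild types). Guanylate-binding proteins coat microbial vacuoles, and Gbp3 was higher by 0.63 ± 0.07 in mutants and 0.74 ± 0.07 in wild types. Gbp2 was higher by 0.45 ± 0.16 in mutants and 0.71 ± 0.16 in wild types (limma adjusted p = 0.0417 in mutants and 0.00374 in wild types), and Ifi47 by 0.44 ± 0.10 in mutants and 0.58 ± 0.10 in wild types. Irgm1, which regulates the other immunity-related GTPases, was bright everywhere, and its brightest probe did not pass. It read 11.04, 11.54 and 11.56 on the small-intestinal mutant arrays and 11.47, 11.35 and 11.36 on the small-intestinal wild-type arrays, against 11.31, 11.33 and 11.64 on the colon mutant arrays and 11.35, 11.46 and 11.62 on the colon wild-type arrays, and its difference was -0.05 ± 0.14 in mutants and -0.08 ± 0.14 in wild types. A second Irgm1 probe, at lower levels, gave -0.28 in mutants and -0.30 in wild types.

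Both chemokines were higher in small intestine. Cxcl9, a ligand of the chemokine receptor CXCR3 on T cells and a known target of interferon gamma, read 8.59, 8.59 and 8.75 on the small-intestinal mutant arrays and 8.82, 8.60 and 8.86 on the small-intestinal wild-type arrays, against 7.78, 7.84 and 7.89 on the colon mutant arrays and 7.82, 7.83 and 7.85 on the colon wild-type arrays. In colon it stayed close to the background limit, and its difference was 0.81 ± 0.07 in mutants and 0.93 ± 0.07 in wild types (limma adjusted p = 4.56e-06 in mutants and 1.45e-06 in wild types). With background subtracted and 16 added as for Usp18, it was 2.53 in mutants and 2.74 in wild types. These sizes depend on the added 16, since the colon values were close to background. Cxcl10, another CXCR3 ligand, was higher by 0.19 ± 0.07 in mutants (limma adjusted p = 0.0418) and 0.31 ± 0.07 in wild types (adjusted p = 0.00303). Cxcl10 was close to background and was kept through small intestine. All 3 arrays of each small-intestinal group were above background, against 1 array in each colon group.

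All 4 genes of class I peptide supply were higher in small intestine in each genotype. Psmb8, the immunoproteasome subunit that replaces a standard catalytic subunit, read 11.64, 11.64 and 11.31 on the small-intestinal mutant arrays and 11.25, 11.37 and 11.30 on the small-intestinal wild-type arrays, against 10.001, 9.67 and 9.58 on the colon mutant arrays and 9.87, 9.68 and 9.69 on the colon wild-type arrays. The small-intestinal arrays were more than 1 log2 unit above every colon array, and colon was itself well above background. The difference was 1.78 ± 0.12 in mutants (limma adjusted p = 8.27e-07), or 3.43-fold, and 1.56 ± 0.12 in wild types (adjusted p = 1.87e-06), or 2.96-fold, while a second, dimmer probe gave 0.95 in mutants and 0.75 in wild types. Psmb9 read 10.41, 10.89 and 10.40 on the small-intestinal mutant arrays and 10.61, 10.63 and 10.55 on the small-intestinal wild-type arrays, against 9.27, 9.05 and 9.35 on the colon mutant arrays and 9.34, 9.03 and 9.13 on the colon wild-type arrays, with no overlap of tissues. Its difference was 1.34 ± 0.13 in mutants and 1.43 ± 0.13 in wild types (limma adjusted p = 1.68e-05 in mutants and 9.09e-06 in wild types). Tap1, its neighbour on the other side of the shared 225 bases, differed by 0.47 ± 0.05 in mutants and 0.29 ± 0.05 in wild types (limma adjusted p = 3.97e-05 in mutants and 0.00119 in wild types). Tap2, the second chain of the peptide transporter, differed by 0.78 ± 0.10 in mutants and 0.87 ± 0.10 in wild types (limma adjusted p = 1.46e-04 in mutants and 5.93e-05 in wild types).

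Of 3 sensors and 5 transcription factors, 4 passed in mutants and 3 in wild types. Of the sensors, Ddx58 (RIG-I, a sensor of viral RNA ends) passed in both genotypes, with 0.32 ± 0.04 in mutants and 0.31 ± 0.04 in wild types (limma adjusted p = 8.92e-05 in mutants and 1.19e-04 in wild types). Dhx58 (LGP2) gave 0.09 in mutants and 0.05 in wild types, and Zbp1, a sensor of Z-form nucleic acid, 0.06 in mutants and -0.03 in wild types. Neither passed. Among transcription factors, Irf9, the DNA-binding part of the type I complex, was higher by 0.53 ± 0.06 in mutants and 0.44 ± 0.06 in wild types (limma adjusted p = 3.72e-05 in mutants and 1.40e-04 in wild types), although a second, dimmer probe gave 0.01 in mutants and 0.06 in wild types. Irf8, a factor of myeloid and B cells, was higher by 0.34 ± 0.06 in mutants and 0.34 ± 0.06 in wild types. Stat2 passed in mutants alone, with 0.29 there (limma adjusted p = 0.0112) and 0.20 in wild types (adjusted p = 0.0615). Irf1, which is induced by interferon gamma, was bright in both tissues and read 12.60, 12.38 and 12.22 on the small-intestinal mutant arrays and 11.93, 12.39 and 12.08 on the small-intestinal wild-type arrays, against 11.95, 12.14 and 12.13 on the colon mutant arrays and 11.85, 12.02 and 12.15 on the colon wild-type arrays. The tissues overlapped in wild types and not in mutants, and its differences of 0.33 ± 0.13 in mutants (limma adjusted p = 0.0719) and 0.13 ± 0.13 in wild types (adjusted p = 0.488) did not pass. Irf7, the amplifier of type I interferon genes, did not pass either, with -0.02 in mutants and 0.13 in wild types.

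**Figure D2:**
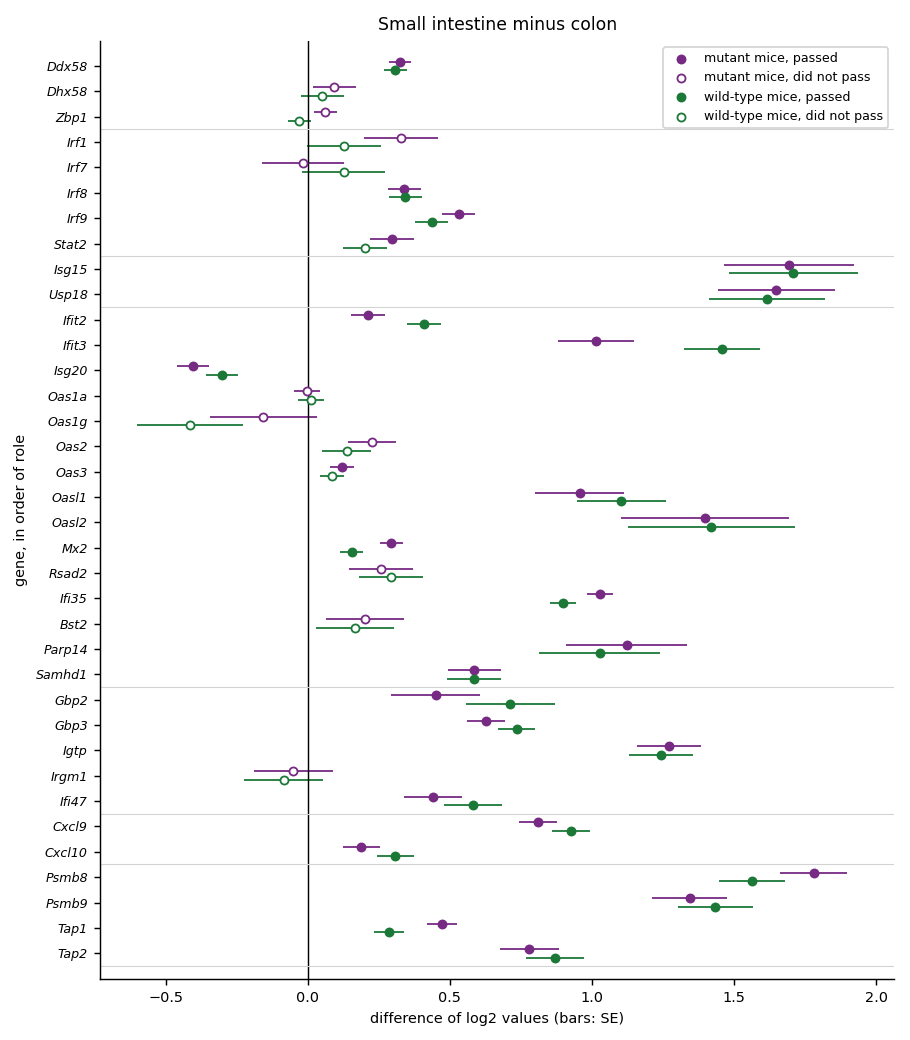
Difference of log2 values, small intestine minus colon (horizontal axis), for the 36 tested interferon response genes in order of role, with the SE of the fit as bars, in mutant and in wild-type mice. Filled points passed at a limma adjusted p under 0.05, and they lie right of 0 for every passing gene other than Isg20.

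The remaining 5 genes with a probe were not above background on 3 arrays and carry no comparison. Ifit1, Xaf1 and Tgtp1 were above the limit on 0 arrays, Ifih1 (MDA5) on 1 and Iigp1 on 2, and their values ran between 7.65 and 7.81. Of the 15 genes with several kept probes, the probes had the same sign of the tissue difference for 15 in mutants and for 13 in wild types, where Irf1 and Zbp1 differed. The sizes differed more. The dimmer probe gave the smaller difference for Usp18 (0.53 in mutants and 0.51 in wild types) and Oasl2 (0.31 in mutants and 0.28 in wild types). The same held for Ifit2, Ifit3, Oasl1, Gbp3, Psmb8, Samhd1, Parp14 and Irf9. Dimmer probes gave the wider difference for Oas1g, Irgm1, Dhx58 and Zbp1 (0.19 in mutants and 0.12 in wild types for Zbp1). For Irf1 they went both ways in mutants. Values of Oas1a and Oas1g and of Ifit3, which have close copies, are uncertain as to which copy was read.

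Markers of other cell types moved with the tissues. Their counts stand beside 17.4% of all features higher and 22.2% lower in small intestine in mutants. In wild types these shares were 17.9% and 23.5%. Per the design text the small-intestinal samples keep stromal and other cells, while for colon the sources name both separated epithelium and whole tissue. In bulk samples fewer cells of a type and less RNA per cell cannot be told apart. Of 10 tested macrophage markers, 8 were higher in mutants and 9 in wild types, and 1 (Cd14) was lower in each. Their mean was 8.53 to 8.64 in small-intestinal mutants and 8.59 to 8.70 in small-intestinal wild types, against 7.96 to 8.05 in colon mutants and 7.93 to 7.96 in colon wild types. C1qb differed by 1.99 and Lyz2 by 1.83 in wild types. Probe sequences were not used here, so whether the Lyz2 probe also reads a close relative was not checked. T cell markers were higher for 3 of 9 in mutants and 4 of 9 in wild types, with means of 8.52 to 8.57 in small-intestinal mutants and 8.55 to 8.57 in small-intestinal wild types, against 8.29 to 8.47 in colon mutants and 8.25 to 8.38 in colon wild types. Cd8a, Gzmb and Cd5 did not reach the background criterion. B cell and plasma cell markers lay at 8.28 to 8.78 in small-intestinal mutants and 8.55 to 8.60 in wild types, and at the background limit in colon (7.77 to 7.80 in mutants and 7.78 to 7.79 in wild types). All 8 smooth muscle markers were higher in each genotype, with means of 10.68 to 10.86 in small-intestinal mutants and 10.76 to 10.82 in small-intestinal wild types, against 8.22 to 8.36 in colon mutants and 8.23 to 8.40 in colon wild types. Of 8 endothelial markers 7 were higher in each genotype, and of 6 fibroblast markers 5. Of 5 dendritic cell markers 2 were higher in mutants and 3 in wild types, with means of 7.79 to 7.80 in small-intestinal mutants and 7.81 to 7.83 in small-intestinal wild types, against 7.76 to 7.77 in colon mutants and 7.74 to 7.77 in colon wild types. Itgax, Flt3 and Xcr1 did not reach the background criterion. Of 4 natural killer cell markers 1 was lower in small intestine in each genotype. Of 9 markers of absorptive epithelium 2 were higher and 4 lower in each genotype, with means of 11.73 to 11.79 in small-intestinal mutants and 11.68 to 11.74 in wild types, against 11.77 to 12.03 in colon mutants and 11.82 to 11.84 in colon wild types. The part of these cell types in the tissue difference was not tested.

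**Figure D3:**
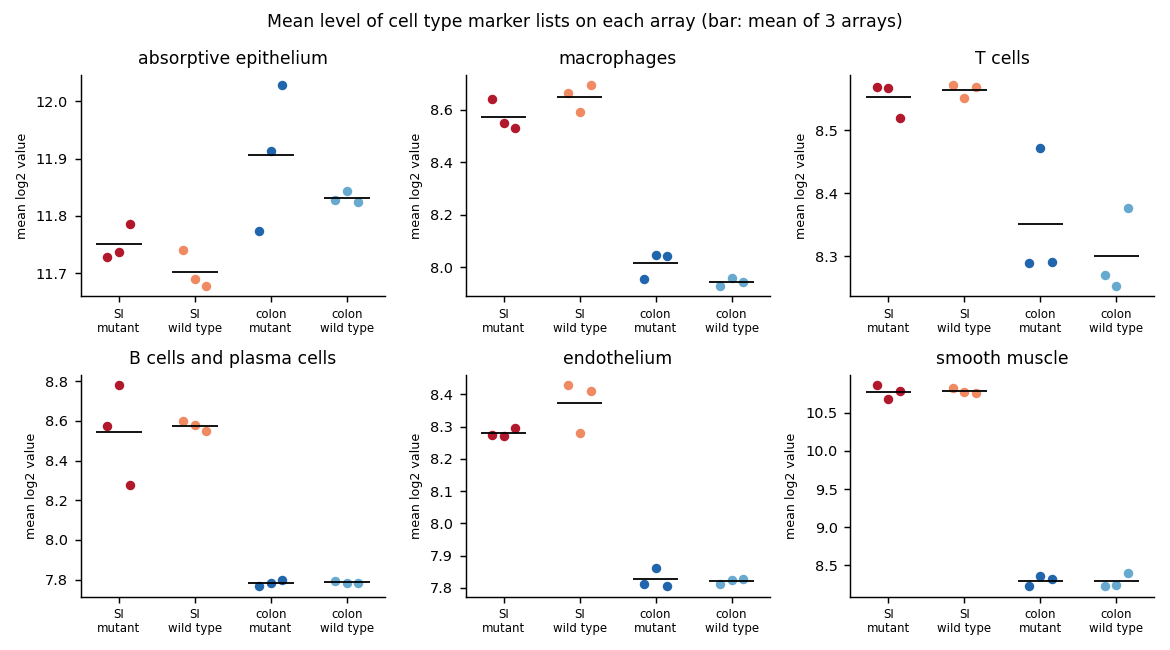
Mean log2 value (vertical axes, each with its own range) of 6 lists of cell type markers on each array, by group, with bars for the mean of 3 arrays. Macrophage, T cell, B cell, endothelial and smooth muscle lists are higher on every small-intestinal array than on every colon array, and the absorptive epithelium list is not.

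The next comparison asked which genes differ when Cftr is deleted in the small-intestinal epithelium. None of the 36 genes passed the threshold. Of all features 0.679% were called (0.17% higher and 0.509% lower), so that a count of 0 among 36 is near the background. Unadjusted p-values lay under 0.05 for 5 of the 36 genes, and 8.17% of all features. The mutant mean was higher for 21 genes and lower for 15, with a median difference of 0.05. Other lists also moved between these arrays. Immediate early genes averaged 9.04 to 9.32 on the mutant arrays and 8.84 to 8.86 on the wild-type arrays, although none of the 8 tested passed. Erythrocyte genes averaged 8.86 to 9.25 on the mutant arrays and 9.80, 8.78 and 9.74 on the wild-type arrays. The part of either in these values was not tested. Arrays of the 2 genotypes did not overlap for 6 genes that were higher (6.73% of all features) and 1 that was lower (6.77%). The higher ones were Zbp1, Irf9, Stat2, Oas2, Mx2 and Ifi35, and the lower one was Ifit2. The genes with the smallest p in the positive direction were Ifi35, Mx2 and Zbp1. Ifi35 averaged 9.74 ± 0.02 in mutants and 9.57 ± 0.05 in wild types (SD, n = 3 each), a difference of 0.17 ± 0.05 (SE, limma adjusted p = 0.219). Mx2 differed by 0.11 ± 0.04 (limma adjusted p = 0.403) and Zbp1 by 0.09 ± 0.04 (adjusted p = 0.562), and both were close to background.

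In the negative direction the smallest p-values were those of Ifit3, Ifit2 and Cxcl9. Ifit3 averaged 9.16 ± 0.18 in small-intestinal mutants and 9.60 ± 0.26 in wild types, a difference of -0.44 ± 0.13 (limma adjusted p = 0.280). Mutant 3, at 9.37, overlapped with wild type 2, at 9.30. Without small-intestinal wild type 2 the difference was -0.60 ± 0.11 and passed (limma adjusted p = 0.0467), and over all alternatives the adjusted p ran from 0.0467 to 0.715. Ifit2 differed by -0.12 ± 0.06 (limma adjusted p = 0.690) with no overlap, and Cxcl9 by -0.11 ± 0.07 (adjusted p = 0.798). Oas1g averaged 10.44 ± 0.34 in mutants and 10.02 ± 0.36 in wild types, a difference of 0.42 ± 0.19 (limma adjusted p = 0.610). Without the 3 arrays with the highest pancreatic acinar means it was 0.56 ± 0.09 (limma adjusted p = 0.0240), which sets 1 mutant array, mutant 3, the highest for Oas1g, against 2 wild-type arrays and borrows its spread from the other groups. The 95% intervals of the difference lay within 0.5 log2 units of 0 for 27 of the 36 genes, and within 1 for all 36.

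In colon the same comparison passed the threshold for none of the 36 genes, and for 0.0% of all features. No member had an unadjusted p under 0.05, against 5.1% of all features, and the smallest adjusted p was 0.938. Oasl1 averaged 8.72 ± 0.27 in colon mutants and 8.41 ± 0.09 in colon wild types, a difference of 0.31 ± 0.16. Irf7 differed by 0.22 ± 0.14, Oas1a by 0.07 ± 0.05, Tap1 by -0.11 ± 0.05, Mx2 by -0.03 ± 0.04 and Samhd1 by -0.05 ± 0.09, which completes the 3 smallest p-values in each direction. Oas1a was higher and Tap1 lower without overlap, where 4.65% and 4.22% of all features were. The intervals lay within 0.5 of 0 for 30 of the 36 genes.

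The genotype effect in small intestine minus that in colon was also tested, and none of the 36 genes passed (0.0% of all features). Unadjusted p-values lay under 0.05 for 4 genes, Tap1, Mx2, Ifit3 and Ifit2, and 5.93% of all features. The difference of effects was 0.19 for Tap1 (limma adjusted p = 0.797) and -0.44 for Ifit3 (adjusted p = 0.824). The same test sets the tissue difference in mutants against that in wild types, so no tissue difference differed between genotypes past the threshold.

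**Figure D4:**
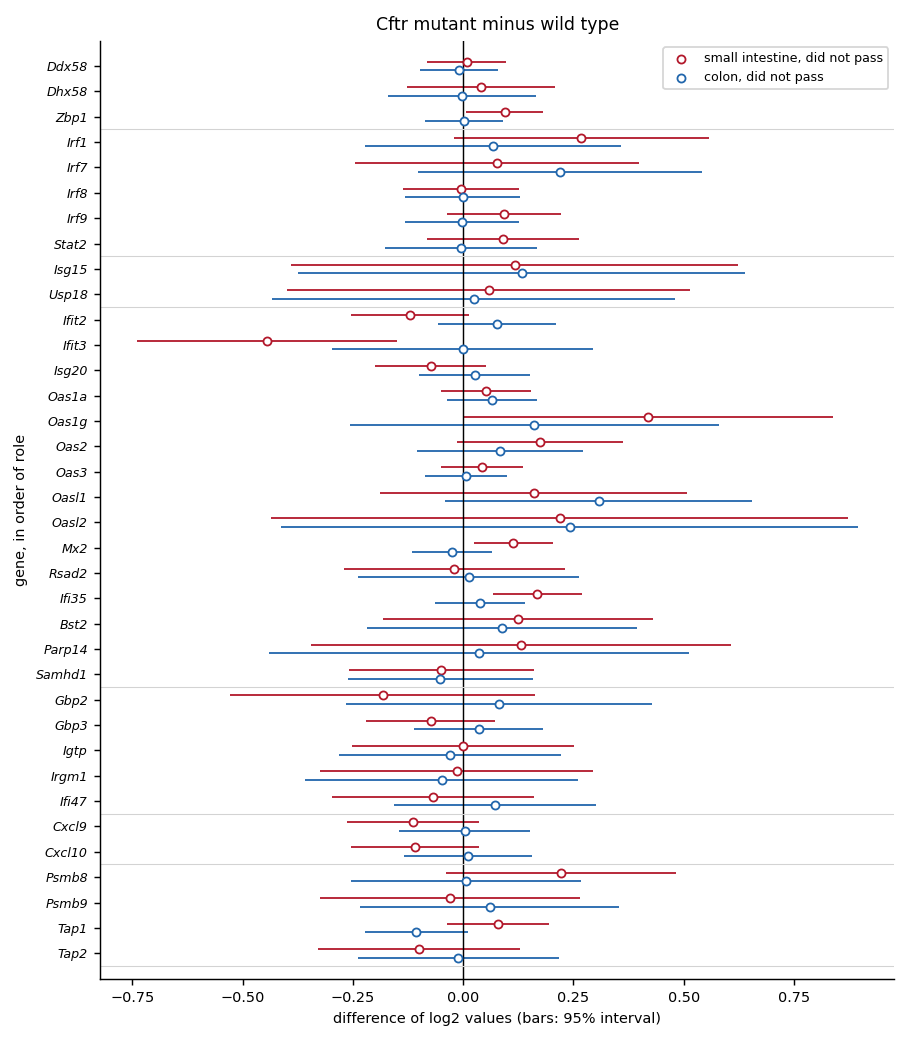
Difference of log2 values, mutant minus wild type (horizontal axes), for the 36 tested genes in order of role, with 95% intervals of the limma fit, in small intestine and in colon. No gene passed at an adjusted p under 0.05 in either tissue, and the widest intervals belong to genes that vary most between arrays, such as Oasl2.

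The genes spread more between arrays of 1 group than the median feature did, which is given as a description and was not tested. The median SD between the 3 arrays of a group was 0.120 for the 36 genes in small-intestinal mutants and 0.0717 in small-intestinal wild types, against 0.0552 and 0.0436 over all features. In colon it was 0.106 in mutants and 0.108 in wild types, against 0.0550 and 0.0525. Oasl2 had the largest SD in small intestine (0.575 in mutants and 0.433 in wild types), Gbp2 in colon mutants (0.352) and Parp14 in colon wild types (0.333). A single array often carried the highest or lowest value of many genes. Colon mutant 1 was the lowest array of its group for 72.2% of the 36 genes (31.3% of all features) and colon wild type 3 the highest for 72.2% (35.9%). Small-intestinal wild type 2 was the lowest for 66.7% (40.4%), and small-intestinal mutant 3 the highest for 52.8% (33.4%). The mean over the 36 genes was 9.13, 9.16 and 9.27 in small-intestinal mutants and 9.21, 9.06 and 9.18 in wild types, against 8.53, 8.64 and 8.69 in colon mutants and 8.53, 8.53 and 8.67 in colon wild types. These shares describe the arrays. The genes are not replicates of a condition.

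**Figure D5:**
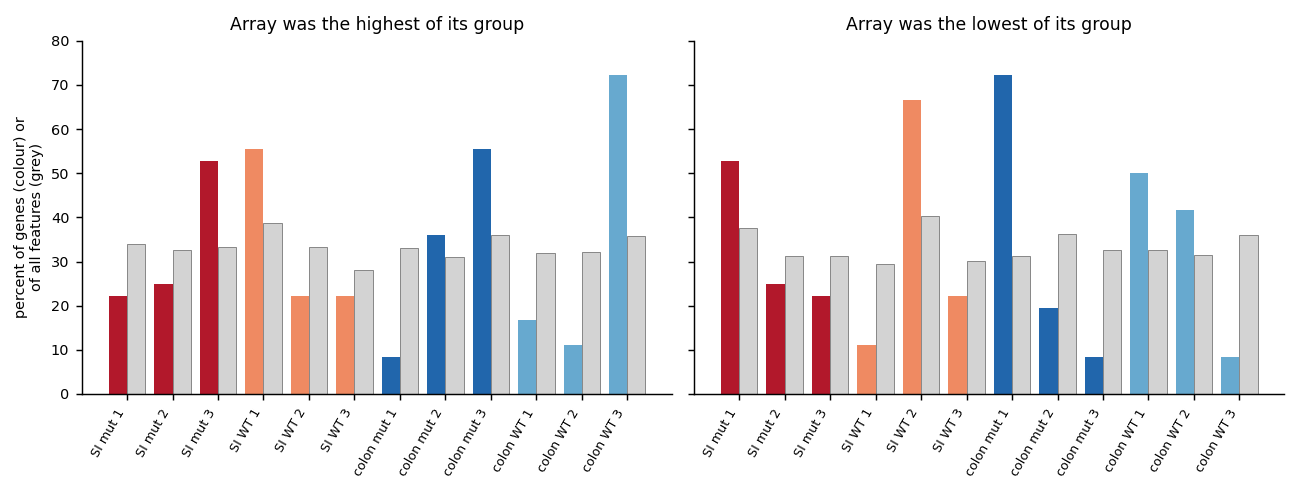
Percent (vertical axes) of the 36 interferon response genes (coloured bars) and of all features (grey bars) for which each array was the highest or the lowest of its group of 3. Colon mutant 1 is the lowest array for 72.2% of the genes, and colon wild type 3 the highest for 72.2%.

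The rest of the interferon pathway, 116 further genes with 82 tested, was read as well. In small intestine 32 were higher and 10 lower in mutants, and 33 higher and 10 lower in wild types, with median differences of 0.11 in each. Over all features, 17.4% were called higher and 22.2% lower in mutants, and 17.9% higher and 23.5% lower in wild types. The interferons themselves were mostly not detected. Of 18 ligand genes with a probe, 12 did not reach the background criterion (Ifna2, Ifna4, Ifna5, Ifna7, Ifna9, Ifna11, Ifna13, Ifna14, Ifnb1, Ifnk, Ifnl3 and Ifng), and Ifna1, Ifna6, Ifna12, Ifnab, Ifne and Ifnz lay near it. Only Ifnab passed, and it was lower in small intestine (-0.22 in mutants and -0.18 in wild types).

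The receptor chains went in both directions. Ifngr1 and Ifngr2, the receptor of interferon gamma, were lower in small intestine. Ifngr1 differed by -0.55 ± 0.14 in mutants and -0.67 ± 0.14 in wild types, and Ifngr2 by -0.64 ± 0.14 in mutants and -0.62 ± 0.14 in wild types. Ifnar2 of the type I receptor gave 0.19 ± 0.04 in mutants (limma adjusted p = 0.00321) and 0.18 ± 0.04 in wild types (adjusted p = 0.00448). Il10rb, a chain of the interferon lambda and IL-10 receptors, gave 0.20 ± 0.11 in mutants (limma adjusted p = 0.162) and 0.44 ± 0.11 in wild types (adjusted p = 0.00711). Ifnlr1 did not pass, with 0.26 in mutants and 0.12 in wild types, and Ifnar1 did not reach the background criterion.

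In wild types, the kinase Jak2 (0.77 ± 0.11) and Irf5 (0.30 ± 0.02) were higher among 6 signalling genes, and the sensing kinase Tbk1 (0.93 ± 0.09), Mavs (0.60 ± 0.10), Ticam1 (0.19) and Tlr7 (0.08) among 10 sensing genes. Of 9 negative regulators 2 were higher and 3 lower, with Socs3, the feedback inhibitor of JAK, at 0.97 ± 0.26 and Nlrx1, a mitochondrial inhibitor of MAVS, at -1.01 ± 0.10. Of 33 other induced genes 19 were higher and 2 lower, led by Lgals9 (2.05 ± 0.13), Ifi27l2a (2.004 ± 0.16), Ifitm3 (1.33 ± 0.16) and Ccl5 (1.26 ± 0.21). Of 13 genes of class I presentation, 4 were higher, among them B2m (1.13 ± 0.07), the light chain of class I molecules, and H2-K1 (0.91 ± 0.13), and 2 were lower, Pdia3 (-0.35 ± 0.07) and H2-D1 (-0.30 ± 0.03). In mutants 2 signalling and 4 sensing genes were higher, and 1 negative regulator was higher and 2 lower. There, 18 of the other induced genes were higher and 3 lower, and 6 genes of class I presentation were higher and 2 lower. The counts of these short lists stand beside 17.9% of all features higher and 23.5% lower in wild types. In mutants the shares were 17.4% and 22.2%.

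H2-D1, a class I heavy chain, was the sole one of these 82 genes called between genotypes in small intestine, where 0.679% of all features were called. It read 12.59, 12.62 and 12.57 in small-intestinal mutants and 12.35, 12.30 and 12.34 in small-intestinal wild types, so the groups did not overlap. The difference was 0.26 ± 0.03 (limma adjusted p = 0.0117). In colon H2-D1 read 12.66, 12.67 and 12.74 in mutants and 12.67, 12.63 and 12.59 in wild types, a difference of 0.06 ± 0.03 (limma adjusted p = 0.938). Class I heavy chain genes are near-identical copies that a probe may not tell apart. H2-D1 had 4 probes, of which 3 were kept, and the values are those of the brightest. Values of its other probes and under alternative fits are not given here. Ifi27l2a, a mitochondrial protein strongly induced by type I interferon, had the next smallest p. It read 8.86, 9.16 and 9.28 in small-intestinal mutants and 10.04, 9.37 and 10.01 in small-intestinal wild types, with every mutant array below every wild-type array. The difference of -0.71 ± 0.16 did not pass (limma adjusted p = 0.115).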

How the data were processed

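The authors deposited log2 values for 12 arrays, and the columns share nearly 1 distribution (medians 7.7560 to 7.7566), as quantile normalization leaves them, a step read here from the values. Per the submitters' processing notes limma was used (no version). A second table, of unnormalized signals, has 24 columns whose names match no sample label, and it was not used. The background treatment was not given in the sources used here. Of 45281 probes, 34885 had 1 gene symbol in the platform annotation, 18 several and 10378 none, and symbols were checked through Entrez numbers (34807 matched). The mode of all values was 7.7. Probes more than 3 SD (0.0278, from the values below the mode, mirrored) above it, at 7.78, on at least 3 arrays were kept (22737), and the probe with the highest mean stood for its gene. Each of 15909 features was fitted with limma 3.58.1 (R 4.3.3), with 1 mean per group over all 12 arrays, 8 residual degrees of freedom and 2.15 from the variance prior. P-values were two-sided and Benjamini-Hochberg adjusted over all features within a contrast, at 0.05. The number of arrays limits the precision, and an exact permutation test of 3 against 3 cannot give a p below 0.1. The fit was also run on simulated data with independent noise for each value. That noise has no variation shared by the genes of an array, so nothing is concluded from the simulation here. Where a probe was dim on every array of a group, the limit stood in for it in the fold, given as at least. Genes named were all members past the threshold, the 3 of smallest p per direction in the genotype contrasts, up to 4 per pathway list, all ligands and receptors with a probe, and up to 3 per cell type list. Oas1g in the genotype contrast, Psmb9 and Tap1's shared stretch and the printed promoters were chosen after their values were seen. Members and lists were chosen with earlier results of these data known. The labels do not tie equal array numbers to 1 mouse, so the numbers were not used as a block.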

Additional observations from a re-analysis of the deposited data

How the results depend on the processing

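The count of members called between tissues ran from 23 to 29 in mutants and from 24 to 27 in wild types over other limits for dim probes, the mean of a gene's probes, another variance prior, array weights, fits of the compared groups alone, cyclic loess, a median shift, background subtraction and leaving out the 3 acinar-high arrays. Leaving out 1 array gave 22 to 27 in mutants and 24 to 26 in wild types. No called member reversed. The shares of all features called under each alternative are not given here, so these counts show only how stable the calls of the members were. In wild types up to 2 members were called lower under these alternatives, against 1 in the main fit. All 24 wild-type calls and 21 of 26 mutant calls passed under every alternative, and those lost under some were Cxcl10, Gbp2, Ifit2, Oas3 and Stat2. The count for genotype in small intestine was 0 to 1 when 1 array was left out (1, Ifit3, without small-intestinal wild type 2) and 1 (Oas1g) without the 3 arrays of highest acinar mean, where 1 small-intestinal mutant array stands against 2 wild-type arrays and is assumed to vary like the other groups. The cause was not tested. The counts for genotype in colon and for the difference of genotype effects were 0 under every alternative run. With the replicate number as a block, 25 members were called between tissues in mutants, 25 in wild types and 0 in the genotype contrasts. Deviations from the group means of arrays with equal numbers correlated at -0.21 to 0.33, over 0.1 in 4 of 18 pairs. An array's best match bore its own number in 5 of 18 cases. Pairs of unlike genotype, which cannot be 1 mouse, are among them and gave both ends of the range of correlations. Equal-number pairs of like genotype, across tissues, correlated at -0.04 to 0.17. These values therefore cannot decide whether equal numbers mark 1 mouse. A fit of the compared groups alone gives no value for the difference of genotype effects, which uses all groups. Dim probes limit what can be read of Ifit1, Xaf1, Tgtp1, Ifih1 and Iigp1.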
